A study of Homo sapiens with 6 samples.

Results

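The genes described here encode the translation initiation factors of the cytosol, the kinases that phosphorylate eIF2, and the regulatory subunits of the phosphatase that reverses it. They are a list of 46 symbols named by their known function, chosen with earlier results of these data known. All 46 were found among the 43424 symbols of the count tables. RNA was measured in HepG2, an established human liver cancer line that keeps many hepatocyte transcripts, in 3 control cultures and 3 cultures kept for 24 h with tamarixetin at 10 µM, a flavonol that is quercetin with 1 O-methyl group. Both groups are wild type per the labels, which describe the cultures as biological replicates and give the controls no treatment. Tamarixetin was applied in medium with 1% serum, against 10% for growth, while neither the serum of the control cultures over those 24 h nor a vehicle is named, so an effect of the compound and one of the serum cannot be told apart here.

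Initiation begins when eIF2, carrying GTP and the initiator tRNA, joins the small ribosomal subunit together with eIF1, eIF1A, eIF5 and the large scaffold eIF3. The eIF4 proteins bind the capped end of the mRNA and unwind it, so that the ribosome can be loaded and scan for a start codon. After each round eIF2B exchanges the spent GDP of eIF2 for GTP. Stress-activated kinases phosphorylate the alpha subunit of eIF2, which turns eIF2 into an inhibitor of eIF2B and lowers initiation on most mRNAs while a few, ATF4 among them, are translated more. The phosphatase PP1, guided by PPP1R15A or PPP1R15B, removes that phosphate. Initiation is also controlled at the cap, where eIF4E-binding proteins block eIF4E unless the kinase mTORC1 phosphorylates them. All values below are mRNA levels, and neither phosphorylation nor translation was measured.

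The libraries held between 11980585 and 16168855 counts. Levels are given as CPM (counts divided by the library total and scaled up) on library sizes scaled by TMM factors. The libraries were made with a 3′ tag method, in which counts should depend little on transcript length, and CPM is used below as a level. Whether CPM is comparable between genes was not tested, and EIF4A1, described below, had 0 counts in all 6 libraries. Statements below on which gene is more abundant are therefore rankings by CPM only. Markers of the hepatocyte line were abundant but lower with tamarixetin: the sum of 8 of them, ALB and AFP included, ran from 15694 to 16291 CPM in control and from 9092 to 9343 CPM in tamarixetin libraries, and their part in the results below was not tested. The sum of 3 immune markers stayed between 11.4 and 15.3 CPM, nearly all of it CD68, with CD3E at 0 counts. The sum of 4 fibroblast markers lay between 32.7 and 39.7 CPM and that of 2 endothelial markers between 0.752 and 1.9 CPM.

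Of the 46 genes, 44 passed the filter on low counts and were tested, with 146 to 18861 counts per library. Genes were compared with edgeR's quasi-likelihood test, and a gene is said to rise or fall where its p, adjusted by the Benjamini-Hochberg method over all 13198 genes tested, is under 0.05. By this rule 26 of the 44 rose (59.1%) and 5 fell (11.4%). Over all genes tested 22.4% rose and 21.3% fell. Called in either direction were 31 of the 44 (70.5%), against 43.7% of all genes. All 44 averaged 10 CPM or more, where changes are easier to detect, and among the 8646 genes of that level 27.4% rose and 25.7% fell, 53.1% in all. The libraries of the groups did not overlap for 34 of the 44 genes, against 50.5% of all genes tested. That share was not computed for the genes of at least 10 CPM alone, so genes of unlike level are compared here. The median log2 fold change was 0.14 over the 44 genes and 0.0088 over the genes of at least 10 CPM. Most of the shifts were small, since 19 of the 31 called genes changed by under 0.3 on the log2 scale and 1 of the 44 genes, PPP1R15A, changed at least 1.5-fold, against 10.5% of the genes of at least 10 CPM. When the test required a change beyond 1.2-fold, 7 of the 31 passed, which were PPP1R15A, EIF2S2, EIF3D, EIF3J, EIF4G3 and EIF4EBP1 (higher) and EIF4EBP2 (lower). That is 15.9% of the 44, against 19.4% of all genes and 20.6% of those of at least 10 CPM, so at this size of change the share called was not above the background. By direction, 13.6% of the 44 were higher and 2.27% lower, against 9.99% and 9.4% of all genes and 10.8% and 9.81% of the genes of at least 10 CPM.

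**Figure D1:**
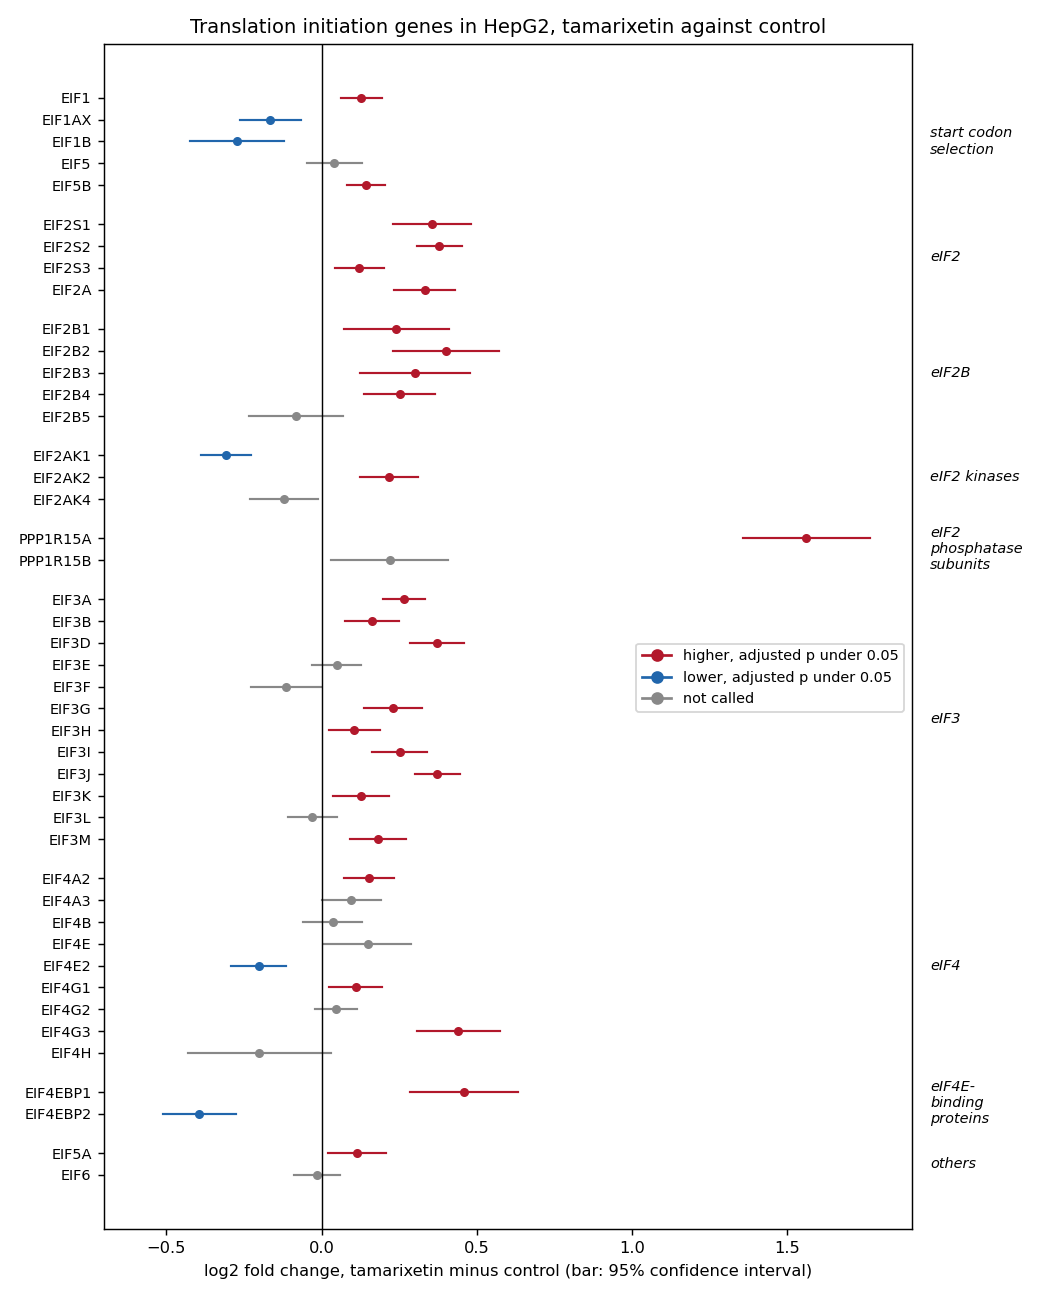
Log2 fold change of the 44 tested genes, tamarixetin minus control, grouped by role, with bars for the 95% confidence interval (3 libraries per group). Most points lie right of 0, PPP1R15A lies alone at 1.56, and the 5 genes that fell are EIF1AX, EIF1B, EIF2AK1, EIF4E2 and EIF4EBP2.

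**Figure D2:**
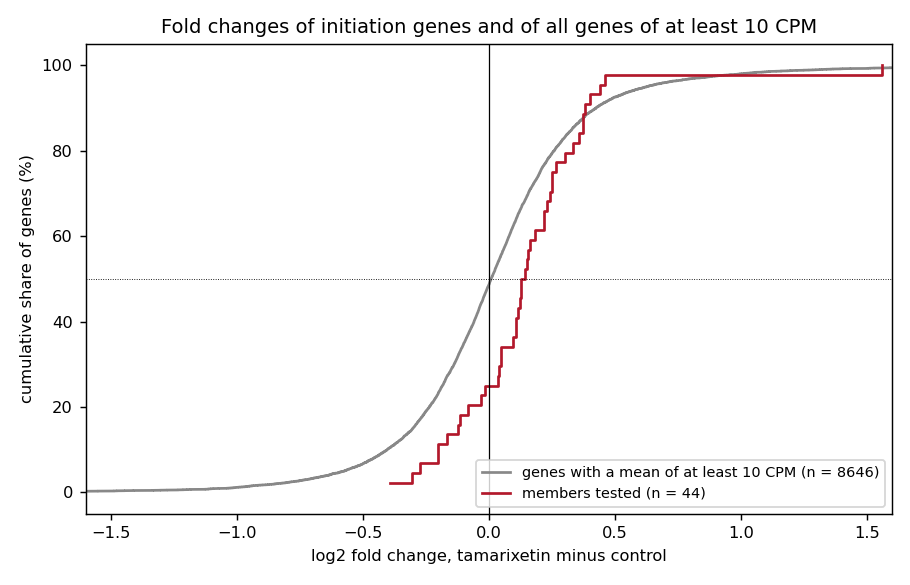
Cumulative share of genes (%) by log2 fold change, for the 44 tested initiation genes and for the 8646 genes that averaged 10 CPM or more. The curve of the initiation genes lies to the right in its middle part, with a median of 0.14 against 0.0088, and spans a narrower range except for PPP1R15A.

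Together the 46 genes, of which EIF4A1 and EIF3C add almost nothing to the sum because they had few or 0 counts, made up 0.897%, 0.926% and 0.899% of the scaled counts in control and 0.999%, 0.990% and 0.993% in tamarixetin libraries. The sum was 1.1 times as high with tamarixetin, and the groups did not overlap. Levels ranged widely, from a mean over both groups of 15.9 CPM for EIF4H, which helps the helicase eIF4A, to 1112 CPM for EIF5B, the GTPase that joins the large ribosomal subunit.

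The widest change was in PPP1R15A, which encodes GADD34, the stress-inducible subunit that directs PP1 to eIF2 (chromosome 19, 48872421 to 48876058, GRCh38). Its level was 11.9, 12.2 and 10.8 CPM in control and 31.9, 34.7 and 36.0 CPM in tamarixetin libraries. Every tamarixetin library was thus well above every control, a 2.95-fold rise (log2 fold change 1.56, SE 0.10, edgeR adjusted p = 2.04e-25). PPP1R15B encodes CReP, the constitutive counterpart of GADD34 (chromosome 1, 204395826 to 204411817), and stood at 24.5, 22.6 and 21.4 CPM in control and 28.1, 24.8 and 26.7 CPM in tamarixetin libraries. Its groups did not overlap either, but it narrowly missed the threshold (log2 fold change 0.22, 95% interval 0.031 to 0.41, edgeR adjusted p = 0.0520). It passed without control replicate 1 (log2 fold change 0.27, edgeR adjusted p = 0.0315) or tamarixetin replicate 2 (0.27, edgeR adjusted p = 0.0349), with library sizes left unscaled (0.25, edgeR adjusted p = 0.0221) and by limma-voom (0.22, limma-voom adjusted p = 0.0489). In control cells PPP1R15A was the less abundant of the pair, at 0.486, 0.539 and 0.504 times the level of PPP1R15B, and with tamarixetin the order was turned, at 1.14, 1.40 and 1.35 times.

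The promoters of these paralogs are shown because PPP1R15A changed so much more than its counterpart. Both are the 250 bases before the RefSeq start (GRCh38.p14), read in the direction of the gene. PPP1R15A lies on the plus strand of chr19:48872171-48872420, and PPP1R15B on the minus strand of chr1:204411818-204412067.
PPP1R15A: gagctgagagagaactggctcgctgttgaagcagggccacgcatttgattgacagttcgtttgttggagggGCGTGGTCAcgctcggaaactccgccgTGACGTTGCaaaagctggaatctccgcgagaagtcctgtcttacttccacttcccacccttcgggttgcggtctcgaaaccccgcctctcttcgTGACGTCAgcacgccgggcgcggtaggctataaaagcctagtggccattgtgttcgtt
PPP1R15B: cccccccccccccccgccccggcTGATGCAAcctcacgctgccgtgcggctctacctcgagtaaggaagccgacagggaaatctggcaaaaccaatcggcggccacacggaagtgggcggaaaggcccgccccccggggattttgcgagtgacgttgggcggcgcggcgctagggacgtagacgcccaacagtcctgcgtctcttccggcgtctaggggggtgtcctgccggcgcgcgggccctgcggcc
Capitals mark matches, on either strand, to the motifs searched. In the PPP1R15A window these are a pair of matches to TGACNNNGC, the core of the antioxidant response element bound by NRF2, and 1 match to TGACGTCA, the cyclic AMP response element bound by CREB and ATF proteins. Of 35116 RefSeq windows of 300 bases, 13.3% hold the first motif and 1.85% the second, which was chosen after the values were seen. In the PPP1R15B window the capitals mark TGATGNAA, the form of the C/EBP-ATF response element, present in 3.62% of windows and in no other window of the 38 initiation genes matched. The motifs do not overlap one another in these windows. A match describes letters and not a site in use.

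Of the eIF2 kinase genes among the 46, 1 fell, 1 rose and 1 was not called. EIF2AK1 encodes HRI, a kinase activated by heme shortage and by signals from stressed mitochondria (chromosome 7, 6022247 to 6059175). Its level was 292, 273 and 262 CPM in control and 224, 221 and 223 CPM in tamarixetin libraries. The tamarixetin libraries lay close together under all controls, a 1.24-fold fall (log2 fold change -0.31, SE 0.041, edgeR adjusted p = 2.64e-10). EIF2AK2 encodes PKR, the kinase activated by double-stranded RNA, and was measured at 126, 131 and 135 CPM in control and 149, 155 and 152 CPM in tamarixetin libraries. It rose 1.16-fold with no overlap (log2 fold change 0.22, SE 0.047, edgeR adjusted p = 5.10e-05). EIF2AK4, which encodes the amino acid sensor GCN2, had 95.1, 91.7 and 90.8 CPM in control and 87.4, 80.5 and 87.2 CPM in tamarixetin libraries. All tamarixetin libraries were below the controls, yet the gene was not called (log2 fold change -0.12, 95% interval -0.23 to -0.013, edgeR adjusted p = 0.0631), and it passed with upper quartile scaling (-0.16, edgeR adjusted p = 0.0140) and where at least 5 CPM in 3 libraries was required (-0.13, edgeR adjusted p = 0.0395). The remaining kinase gene, EIF2AK3, encodes PERK, the sensor of the endoplasmic reticulum, and was fixed as part of a comparison list. It was the least abundant of the kinase genes, at 16.2, 15.8 and 18.9 CPM in control and 12.4, 14.5 and 14.0 CPM in tamarixetin libraries, and fell (log2 fold change -0.32, edgeR adjusted p = 0.0202). That call was lost without control replicate 3 (log2 fold change -0.24, edgeR adjusted p = 0.151) or tamarixetin replicate 1 (-0.26, edgeR adjusted p = 0.122).

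**Figure D3:**
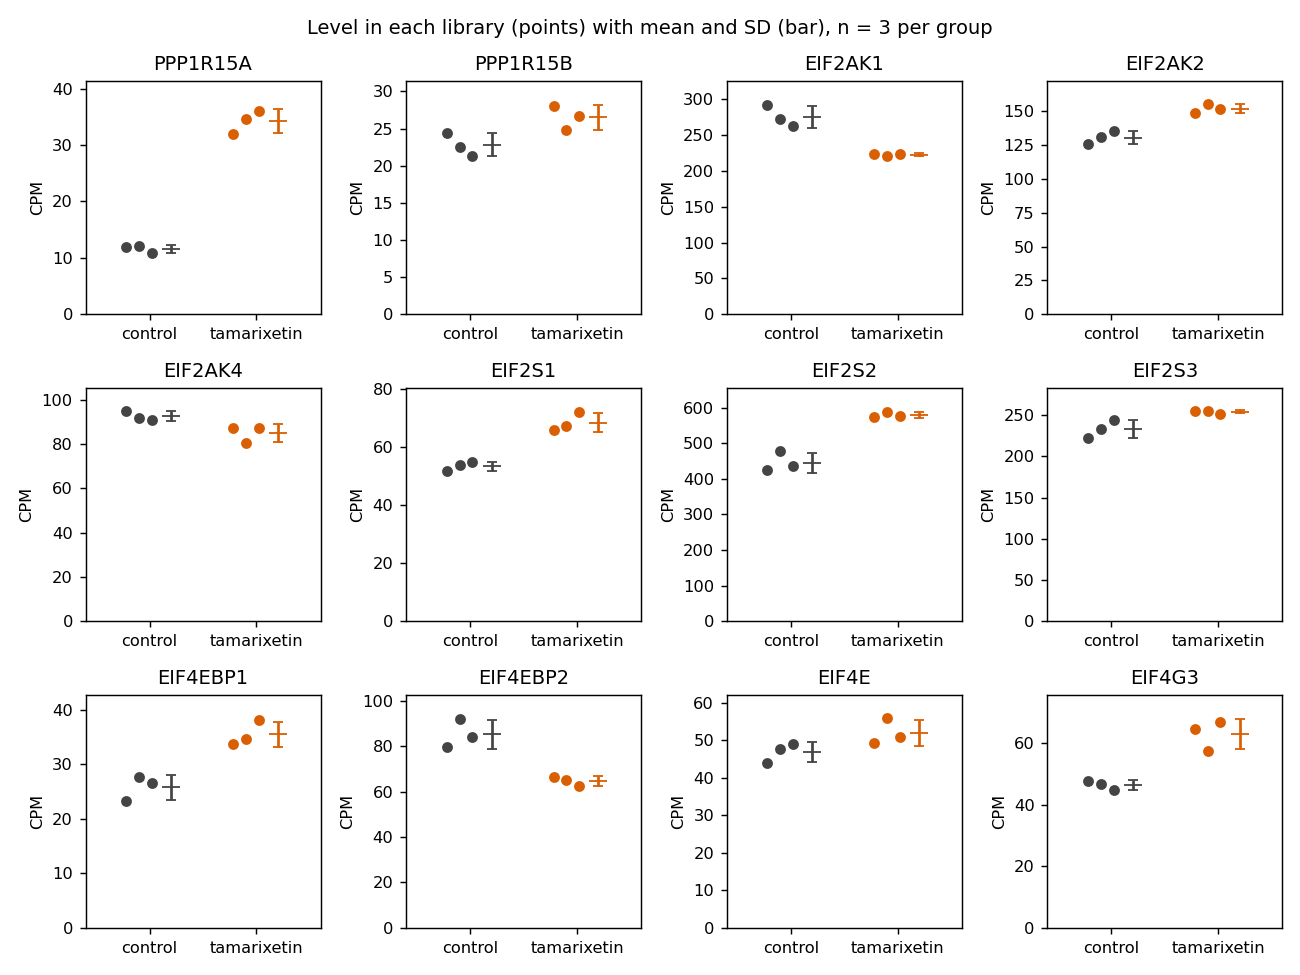
CPM in each library for 12 genes of eIF2 control and of the cap complex, with points for libraries and bars for the mean and SD (n = 3 per group, axes from 0). The groups are apart in all 12 panels, by far the most for PPP1R15A, and EIF2AK1, EIF2AK4 and EIF4EBP2 are the panels in which tamarixetin is the lower group.

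The 3 subunit genes of eIF2 all rose, EIF2S3 by the least, against 22.4% of all genes tested and 27.4% of the genes of at least 10 CPM. Of all genes tested, 26% had every tamarixetin library above every control. EIF2S1 encodes the alpha subunit, the target of the kinases (chromosome 14, 67360328 to 67386516), and had 51.7, 53.6 and 54.8 CPM in control and 65.8, 67.3 and 72.0 CPM in tamarixetin libraries. EIF2S2, for the beta subunit (chromosome 20, 34088309 to 34112243), had 423, 477 and 436 CPM in control and 573, 587 and 577 CPM in tamarixetin libraries. EIF2S3, for the gamma subunit that binds GTP and the initiator tRNA (chromosome X, 24054956 to 24078810), had 222, 234 and 245 CPM in control and 255, 255 and 252 CPM in tamarixetin libraries. In each of these genes all tamarixetin libraries were above all controls, with log2 fold changes of 0.36 (SE 0.064), 0.38 (SE 0.036) and 0.12 (SE 0.040) in that order. Their edgeR adjusted p were 1.57e-06, 2.14e-16 and 0.00957. The call for EIF2S3 was lost with upper quartile scaling (log2 fold change 0.086, edgeR adjusted p = 0.0737) and without control replicate 1 (log2 fold change 0.083, edgeR adjusted p = 0.110). The mRNA of the alpha subunit was the scarcest in every library and that of the beta subunit the most abundant, at 53.4 ± 1.56 against 445 ± 28.2 CPM in control (SD, n = 3). EIF2A, which despite its name is no subunit of eIF2 but a separate factor able to deliver initiator tRNA, had 108, 105 and 104 CPM in control and 132, 128 and 140.0 CPM in tamarixetin libraries and rose by 0.33 (SE 0.049, edgeR adjusted p = 1.12e-08).

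Of the 5 genes of eIF2B, 4 rose (80%), against 27.4% of the genes of at least 10 CPM. EIF2B2, a regulatory subunit, showed the widest rise, with 26.2, 24.8 and 26.2 CPM in control and 32.4, 34.5 and 35.2 CPM in tamarixetin libraries (log2 fold change 0.40, SE 0.086, edgeR adjusted p = 5.81e-05). EIF2B3, of the catalytic part of the complex, was measured at 26.6, 24.1 and 23.8 CPM in control and 31.2, 31.1 and 29.4 CPM in tamarixetin libraries (log2 fold change 0.30, SE 0.089, edgeR adjusted p = 0.00367). The regulatory subunits EIF2B4 and EIF2B1 had log2 fold changes of 0.25 and 0.24, and all 4 rising genes had no overlap between groups. EIF2B1 was not called without control replicate 1 (log2 fold change 0.15, edgeR adjusted p = 0.178) or tamarixetin replicate 1 (0.21, edgeR adjusted p = 0.0770). EIF2B5, which encodes the catalytic epsilon subunit that exchanges the nucleotide, was the exception. Its libraries overlapped, at 40.4, 40.8 and 46.4 CPM in control and 43.8, 37.5 and 39.3 CPM in tamarixetin libraries, and it was not called (log2 fold change -0.082, 95% interval -0.23 to 0.070).

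eIF3 is the largest initiation factor, a complex of 13 subunits, and 12 of its genes were tested. Of these 9 rose and 0 fell by edgeR's test, nor did any fall by DESeq2 or limma-voom, while 1, EIF3F, was lower at an unadjusted p under 0.05. The 9 that rose were 75% of the 12, against 27.4% of the genes of at least 10 CPM. The median log2 fold change of the 12 was 0.17. EIF3J, a loosely attached subunit that sits near the decoding site of the ribosome (chromosome 15, 44537147 to 44562803), had 350.1, 367 and 350.1 CPM in control and 454, 459 and 469.9 CPM in tamarixetin libraries. EIF3D, which can itself bind the cap of some mRNAs (chromosome 22, 36510855 to 36529166), had 182, 183 and 164 CPM in control and 228, 220.0 and 234 CPM in tamarixetin libraries. These genes rose by 0.37 and 0.37 on the log2 scale (SE 0.036 and 0.043, edgeR adjusted p = 6.40e-16 and 2.53e-12), and in both the groups lay clear of each other. EIF3A, the largest scaffold subunit and the most abundant of the 12 tested eIF3 mRNAs, rose from 692 ± 33.3 to 832 ± 27.9 CPM (SD, n = 3 per group; log2 fold change 0.27). EIF3I, EIF3G, EIF3M and EIF3B followed, at 0.25, 0.23, 0.18 and 0.16.

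The genes of eIF3 were also split by structural part, a grouping made after the values were seen and therefore given without a test. EIF3A, EIF3B, EIF3D, EIF3G, EIF3I and EIF3J all rose, by 0.16 to 0.37. EIF3C was not tested and is in neither part. The other 6 tested genes, EIF3E, EIF3F, EIF3H, EIF3K, EIF3L and EIF3M, encode subunits of the octameric core found in animals. EIF3A belongs to that octamer as well, so the split does not separate the octamer from the rest. The log2 fold changes of EIF3E, EIF3F, EIF3H, EIF3K, EIF3L and EIF3M ran from -0.11 to 0.18, and 3 of the 6 rose (50%). Among the genes of at least 10 CPM 27.4% rose, a share below that of either part. The ranges met, since EIF3M (0.18) rose by more than EIF3B (0.16). EIF3E was at 272 ± 13.0 and 281 ± 1.78 CPM (log2 fold change 0.048, 95% interval -0.030 to 0.13), and EIF3L at 279 ± 3.95 and 273 ± 13.2 CPM (95% interval -0.11 to 0.048), in control and tamarixetin libraries (SD, n = 3 each). EIF3F was not called (95% interval of the log2 fold change -0.23 to -0.0016) but fell with upper quartile scaling (log2 fold change -0.15, edgeR adjusted p = 0.0244) and without tamarixetin replicate 1 (-0.17, edgeR adjusted p = 0.0242). The rises of EIF3K (0.13) and EIF3H (0.11) were slight. EIF3K lost its call with upper quartile scaling (0.092, edgeR adjusted p = 0.0954) and without control replicate 1 (0.11, edgeR adjusted p = 0.0642) or tamarixetin replicate 2 (0.12, edgeR adjusted p = 0.0795). EIF3H lost it with upper quartile scaling (0.070, edgeR adjusted p = 0.160), with no filter (0.11, edgeR adjusted p = 0.0525) and without control replicate 1 (0.090, edgeR adjusted p = 0.0903) or 2 (0.094, edgeR adjusted p = 0.0939), or tamarixetin replicate 2 (0.097, edgeR adjusted p = 0.106).

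The other 2 of the 46 genes had too few counts to be tested. EIF4A1, the main helicase gene of the cap complex (chromosome 17, 7572825 to 7579006), had 0 counts in all 6 libraries. Its span lies within the readthrough transcript SENP3-EIF4A1 of the RefSeq annotation, which also had 0 counts in all 6. EIF3C had 1 to 9 counts per library and its near-identical copy EIF3CL 0 to 7, and reads common to both cannot be told apart. No level is given for either gene. In addition, 10 of the 46 gene spans overlap another coding gene, namely those of EIF2AK1 (AIMP2 and ANKRD61), EIF2AK2 (GPATCH11), EIF2S1 (GPHN), EIF2B1 (DDX55), EIF3A (NANOS1), EIF3B (SNX8), EIF3G (P2RY11), EIF3J (SPG11), EIF3M (CCDC73) and EIF5B (REV1). The strand setting of the counting is not given in the sources used here, so reads from a shared stretch cannot be told apart.

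At the cap, the inhibitors of eIF4E went in opposite directions. EIF4EBP1 (chromosome 8, 38030534 to 38060365) encodes the best known of the eIF4E-binding proteins and had 23.2, 27.6 and 26.5 CPM in control and 33.7, 34.6 and 38.1 CPM in tamarixetin libraries. Its paralog EIF4EBP2 (chromosome 10, 70404145 to 70428618) had 79.4, 91.9 and 84.2 CPM in control and 66.3, 65.2 and 62.4 CPM in tamarixetin libraries. EIF4EBP1 rose 1.37-fold (log2 fold change 0.46, SE 0.087, edgeR adjusted p = 5.38e-06) and EIF4EBP2 fell 1.31-fold (log2 fold change -0.39, SE 0.059, edgeR adjusted p = 1.83e-08), each without overlap between the groups. EIF4EBP2 was the more abundant mRNA in all 6 libraries. The ratio of EIF4EBP1 to EIF4EBP2 was 0.292, 0.30 and 0.315 in control and 0.508, 0.531 and 0.611 in tamarixetin libraries.

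Their target EIF4E, the cap-binding protein, had 43.9, 47.5 and 49.1 CPM in control and 49.3, 55.9 and 50.7 CPM in tamarixetin libraries. The tamarixetin libraries were just above the controls, but the gene was not called (log2 fold change 0.15, 95% interval 0.0087 to 0.29, edgeR adjusted p = 0.0790). It passed without tamarixetin replicate 1 (0.19, edgeR adjusted p = 0.0486) and with library sizes left unscaled (0.18, edgeR adjusted p = 0.0269). EIF4E2, which encodes 4EHP, a cap-binding protein that competes with eIF4E and represses its targets, fell from 197 ± 7.85 to 170.4 ± 11.2 CPM (SD, n = 3 per group; log2 fold change -0.20, SE 0.045, edgeR adjusted p = 7.72e-05). The scaffold genes showed a contrast of their own. EIF4G3 (chromosome 1, 20806292 to 21176897), the scarcer homolog of the main scaffold EIF4G1, had 47.7, 46.6 and 44.7 CPM in control and 64.5, 57.5 and 66.6 CPM in tamarixetin libraries and rose 1.36-fold with no overlap (log2 fold change 0.44, SE 0.068, edgeR adjusted p = 3.01e-08). EIF4G1 passed with a log2 fold change of 0.11, but its groups overlapped, at 295, 285 and 243 CPM in control and 299.5, 285 and 301 CPM in tamarixetin libraries. It was not called without control replicate 3, the lowest library (log2 fold change 0.023, edgeR adjusted p = 0.701). It was also not called by DESeq2 (0.11, DESeq2 adjusted p = 0.360), with upper quartile scaling (0.074, edgeR adjusted p = 0.152), or without tamarixetin replicate 1 (0.099, edgeR adjusted p = 0.0684) or 3 (0.095, edgeR adjusted p = 0.109).

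EIF4G2, which encodes DAP5, a scaffold that does not bind eIF4E, was the most abundant of the 9 tested eIF4 genes, at 811 ± 54.6 and 838 ± 15.3 CPM (SD, n = 3 each; 95% interval of the log2 fold change -0.022 to 0.11), and passed with library sizes left unscaled (0.081, edgeR adjusted p = 0.0474). Among the helicases, EIF4A2 rose by 0.15 (SE 0.040), while EIF4A3, a core protein of the exon junction complex, was not called (0.095, 95% interval -0.00025 to 0.19). EIF4A3 passed with library sizes left unscaled (0.13, edgeR adjusted p = 0.0213) and without tamarixetin replicate 3 (0.13, edgeR adjusted p = 0.0418). The helicase cofactors EIF4B (95% interval -0.059 to 0.13) and EIF4H (-0.43 to 0.030) were not called, and EIF4H had the lowest mean level of the tested genes.

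The factors of start codon selection split as well. EIF1, which guards against wrong start codons, had 656, 702 and 692 CPM in control and 746, 739 and 756 CPM in tamarixetin libraries and rose slightly (log2 fold change 0.13, SE 0.033, edgeR adjusted p = 8.83e-04). Its paralog EIF1B, far less abundant, had 41.8, 42.6 and 44.3 CPM in control and 35.9, 36.5 and 34.1 CPM in tamarixetin libraries and fell (log2 fold change -0.27, SE 0.077, edgeR adjusted p = 0.00205). EIF1AX, the partner of EIF1 on the small subunit, fell by 0.16 on the log2 scale, and EIF5B rose by 0.14, from 1057 ± 25.1 to 1167 ± 37.4 CPM (SD, n = 3 per group). EIF5, which triggers GTP hydrolysis by eIF2, was not called (95% interval -0.048 to 0.13). Of the remaining factors, EIF5A, the hypusine-bearing protein that helps the ribosome past difficult peptide bonds, rose by 0.11, and EIF6, which keeps ribosomal subunits apart, was at 421 ± 21.0 and 416 ± 17.5 CPM (SD, n = 3 each; 95% interval -0.088 to 0.059). The call for EIF5A did not hold by DESeq2 (0.11, DESeq2 adjusted p = 0.0661), with upper quartile scaling (0.079, edgeR adjusted p = 0.170) or with no filter on low counts (0.12, edgeR adjusted p = 0.0710). Nor did it hold without control replicate 2 (0.086, edgeR adjusted p = 0.193) or 3 (0.11, edgeR adjusted p = 0.0701), or tamarixetin replicate 2 (0.10, edgeR adjusted p = 0.145) or 3 (0.12, edgeR adjusted p = 0.0761).

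Ratios of related genes within a library do not depend on how libraries are scaled, and 7 such pairs could be computed. The log2 ratio of PPP1R15A to PPP1R15B rose by 1.34 and that of EIF4EBP1 to EIF4EBP2 by 0.86. EIF1 to EIF1B (0.40), EIF4E to EIF4E2 (0.36) and EIF4EBP1 to EIF4E (0.31) were also higher in all tamarixetin libraries than in any control, and EIF4G1 to EIF4G3 (-0.33) was lower in all. For each of these 6 pairs the two-sided exact permutation test gave p = 0.1, the smallest that 3 against 3 libraries allows, or 0.117 when adjusted over the 7 pairs. The ratio of EIF4G1 to EIF4G2 overlapped between the groups (difference 0.064, exact permutation p = 0.6), and its difference was -0.032 without control replicate 3.

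**Figure D4:**
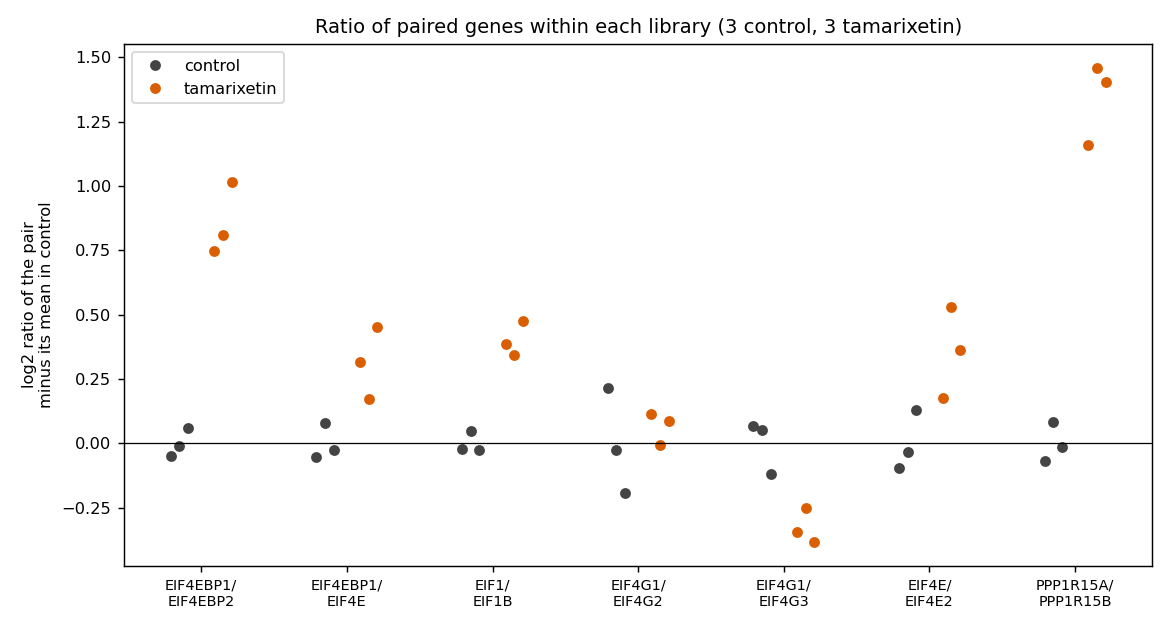
Log2 ratio of 7 gene pairs in each library, minus the mean of that ratio in control (points, 3 control and 3 tamarixetin libraries). The groups are apart for 6 pairs, most for PPP1R15A/PPP1R15B, and overlap for EIF4G1/EIF4G2.

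Other genes around initiation were mixed. In a list of 37 regulators of initiation and of eIF2, 33 were tested, 11 rose (33.3%) and 7 fell (21.2%). Over all genes tested the shares were 22.4% and 21.3%, and over the genes of at least 10 CPM 27.4% and 25.7%. LARP1, which binds mRNAs of the translation machinery under mTORC1 control, rose by 0.37 (SE 0.037), ABCE1, which splits ribosomes for reuse, by 0.42 (SE 0.057), and DENR, a factor of reinitiation, by 0.23 (SE 0.048). EIF5A2, the scarce paralog of EIF5A, rose from 4.04 ± 0.684 to 8.64 ± 0.349 CPM (SD, n = 3 per group). Besides EIF2AK3, those that fell were PDCD4, an inhibitor of eIF4A (-0.29), DNAJC3, an inhibitor of eIF2 kinases (-0.20), MKNK2, a kinase of eIF4E (-0.17), BZW1 (-0.15), PAIP2 (-0.14) and METAP2 (-0.085). Of these, PDCD4 and DNAJC3 remained called whichever library was left out. With library sizes left unscaled the calls were lost for MKNK2 (-0.14, edgeR adjusted p = 0.0549), BZW1 (-0.12, edgeR adjusted p = 0.0628), PAIP2 (-0.10, edgeR adjusted p = 0.0886) and METAP2 (-0.050, edgeR adjusted p = 0.231), and for METAP2 also with no filter (-0.082, edgeR adjusted p = 0.0702). MKNK2 lost its call without control replicate 3 (-0.13, edgeR adjusted p = 0.107) or tamarixetin replicate 2 (-0.14, edgeR adjusted p = 0.0958), and BZW1 without control replicate 1 (-0.11, edgeR adjusted p = 0.110) or 2 (-0.14, edgeR adjusted p = 0.0526) or tamarixetin replicate 2 (-0.10, edgeR adjusted p = 0.173). PAIP2 lost it without control replicate 3 (-0.12, edgeR adjusted p = 0.0832) or tamarixetin replicate 2 (-0.092, edgeR adjusted p = 0.220) or 3 (-0.14, edgeR adjusted p = 0.0529). METAP2 lost it without control replicate 2 (-0.066, edgeR adjusted p = 0.150) or tamarixetin replicate 2 (-0.073, edgeR adjusted p = 0.145) or 3 (-0.082, edgeR adjusted p = 0.0844).

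Of 18 elongation and termination genes tested, 9 rose (50%) and 1 fell (5.56%), with a median log2 fold change of 0.13. Of all genes tested 22.4% rose and 21.3% fell, and of the genes of at least 10 CPM 27.4% and 25.7%. DPH2, needed for the diphthamide of elongation factor eEF2 (0.67), the ribosome rescue factor PELO (0.66), the synthetase scaffold protein EEF1E1 (0.33) and the release factor GSPT1 (0.31) had the smallest p. EEFSEC, the elongation factor for selenocysteine, was the single gene that fell (-0.32), but not by DESeq2 (-0.33, DESeq2 adjusted p = 0.0661), with library sizes left unscaled (-0.29, edgeR adjusted p = 0.0512), or without control replicate 1 (-0.33, edgeR adjusted p = 0.0524) or 2 (-0.31, edgeR adjusted p = 0.0720) or tamarixetin replicate 2 (-0.20, edgeR adjusted p = 0.259).

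Genes around mTORC1, the kinase upstream of the eIF4E-binding proteins, showed no common direction, with 6 of 26 higher, 5 lower and a median of 0.067. These shares, 23.1% and 19.2%, were near the 22.4% and 21.3% of all genes tested. Among the genes of at least 10 CPM the shares were 27.4% and 25.7%. RHEB, the GTPase that activates mTORC1, rose by 0.52 and the Rag GTPase RRAGC by 0.37. Outside the rule for named genes, MTOR itself (0.34), RRAGD (0.78, from a low level of 2.26 CPM) and LAMTOR5 (0.21) rose too. The sestrins, which restrain mTORC1 when leucine is short, diverged: SESN2 rose from 54.4 ± 3.37 to 84.0 ± 4.60 CPM, while SESN1 fell from 48.6 ± 1.94 to 37.0 ± 1.31 CPM and SESN3 from 5.35 ± 0.499 to 2.42 ± 0.516 CPM (SD, n = 3 per group). The mTORC1 inhibitors AKT1S1 (-0.41) and DEPTOR (-1.78, from a low level of 1.91 CPM) fell. The S6 kinase gene RPS6KB2 fell by 0.17, but not with library sizes left unscaled (-0.14, edgeR adjusted p = 0.0741) or without tamarixetin replicate 2 (-0.17, edgeR adjusted p = 0.0555) or 3 (-0.15, edgeR adjusted p = 0.0947).

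A list of 11 transcripts of the eIF2 pathway that are regulated by upstream open reading frames includes PPP1R15A and PPP1R15B. Of the 11, 6 rose (54.5%) and 1 fell (9.09%), against 22.4% and 21.3% of all genes tested. Among the genes of at least 10 CPM 27.4% rose and 25.7% fell. After PPP1R15A the widest rise was in IFRD1, at 12.7, 17.8 and 13.9 CPM in control and 29.5, 32.1 and 31.4 CPM in tamarixetin libraries (log2 fold change 1.08, SE 0.10). ATF4, the central transcription factor of the response, rose from 548 ± 1.74 to 688 ± 15.6 CPM (SD, n = 3 per group), and CEBPA, a hepatocyte transcription factor, fell by 0.63 (SE 0.053). DDIT3, which encodes the factor CHOP that can induce PPP1R15A, is outside the rule for named genes and was added after its values were seen. It had 9.95, 12.1 and 8.90 CPM in control and 10.8, 14.8 and 14.7 CPM in tamarixetin libraries, with overlap between groups (log2 fold change 0.38, edgeR adjusted p = 0.0189), and was not called by DESeq2 (0.38, DESeq2 adjusted p = 0.0648) or without control replicate 1 (0.36, edgeR adjusted p = 0.0561) or 3 (0.28, edgeR adjusted p = 0.150) or tamarixetin replicate 2 (0.30, edgeR adjusted p = 0.117) or 3 (0.31, edgeR adjusted p = 0.0967).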

How the data were processed

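Per the labels' protocols, 3′ tag libraries were made from total RNA (Lexogen QuantSeq, forward version) of 3 control and 3 tamarixetin cultures. The submitters' processing notes name fastp 0.23.1, STAR 2.7.10b, featureCounts 2.0.6 and GRCh38; how the authors set strand, annotation release and molecular identifiers is not given in the sources used here. Each deposited table holds the authors' raw, unnormalised counts by gene symbol. Library totals ran from 11980585 to 16168855, and chi-square between libraries of the same group was 2.35 to 3.52 per gene, above sampling noise.

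The groups were compared by the quasi-likelihood F test of edgeR 4.0.16 (R 4.3.3; filterByExpr, TMM, group as the only term) and adjusted over 13198 genes at 0.05. SE is the log2 fold change over the square root of F, and intervals are 95%. On counts simulated for this comparison (13015 genes tested) the share of changed genes found was 52% at 1.25-fold, 72% at 1.5-fold, 90% at 2-fold and 98% at 3-fold (50 genes each), with 6 false calls. Only these genes were changed there, drawn from genes of any tested level, whereas 43.7% of genes were called in the data. The simulated shares and false calls thus do not carry over to the initiation genes. The labels do not say that cultures were set up separately, beyond calling them biological replicates, so p-values refer to these samples only. The edgeR test also shares information on variance across genes, with at least 93.4 degrees of freedom per gene. Its p-values, SE and intervals therefore do not rest on the spread of each gene's own 6 libraries alone.

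Full values are given for genes of eIF2, its kinases and phosphatase subunits, the eIF4E-binding proteins and any other called gene with an absolute log2 fold change of at least 0.3. From each comparison list the 4 with the smallest p and those against the majority are named. Members and lists were chosen with earlier results of these data known. All 46 genes were found in the RefSeq gene table (GRCh38.p14) and 38 in its promoter table. Alternatives covered scaling, filters, the replicate block, DESeq2 1.42.0, limma-voom (limma 3.58.1), stricter thresholds and each library left out.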

Additional observations from a re-analysis of the deposited data

How the results depend on the processing

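Single initiation genes were followed under 14 alternatives, which were other scalings, filters, the replicate block, DESeq2, limma-voom and each library left out. The stricter thresholds were applied to counts only. Of these 616 values, 571 kept their direction and their side of the threshold, 24 lost the call, 13 gained one and 8 changed sign, and 29 of 44 genes kept both under these 14. The 8 changes of sign were in genes that were not called: EIF3L (0.0051 with library size alone, 0.0076 without tamarixetin replicate 3), EIF4B (-0.00028 with upper quartile scaling, -0.010 without tamarixetin replicate 1), EIF4G2 (-0.0095 without control replicate 1) and EIF6 (0.021 with library size alone, 0.024 without control replicate 1, 0.018 without tamarixetin replicate 3). Over the libraries left out in turn, EIF3L ran from -0.058 to 0.0076, EIF4B from -0.010 to 0.061, EIF4G2 from -0.0095 to 0.083 and EIF6 from -0.045 to 0.024. The count of initiation genes that rose was 21 with upper quartile scaling and 30 with library size alone, which shift the median of all genes by -0.035 and 0.035, and 24 by DESeq2. The median of the initiation genes was 0.10 and 0.17 under these scalings, and 0.11 without control replicate 1. With upper quartile scaling EIF2AK4 (-0.16) and EIF3F (-0.15) were called lower as well. A minimum fold of 1.2 left 6 higher and 1 lower, 15.9% of the 44 against 19.4% of all genes. Leaving out 1 library gave 23 to 25 higher, 5 to 6 lower and a median of 0.11 to 0.14.

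Of the other regulators, 7 rose with upper quartile scaling and 3 with a minimum fold of 1.2, and 3 fell with library size alone, 2 at an adjusted p of 0.01 and 0 with the minimum fold. Elongation and termination genes had 3 higher with the minimum fold, and the count that fell was 0 with library size alone, DESeq2, an adjusted p of 0.01 and the minimum fold. For mTORC1 control, 2 rose and 2 fell with the minimum fold, and 3 fell with at least 5 CPM in 3 libraries. Without 1 library, other regulators had 8 to 11 higher and 3 to 6 lower, elongation and termination genes 7 to 9 higher and 0 to 2 lower, mTORC1 control 6 to 7 higher and 4 to 6 lower, and the transcripts with upstream reading frames 5 to 7 higher and 1 lower. The EIF4G1 to EIF4G2 ratio ran from -0.032 to 0.17.

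Samples with the same replicate number did not deviate together (correlations of -0.017 to 0.011), so the numbers were not taken to pair them. With the replicate block, 26 initiation genes rose and 5 fell, as without it, and 5735 genes were called in all against 5771. The number of libraries limits the precision, and the 95% intervals of uncalled genes show what size of change remains possible.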

Other observations

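Promoter windows were found for 38 of the 46 genes. The antioxidant response core TGACNNNGC was in a window of 11 of them (28.9%), against 16.1% of the 27305 genes in the table. Of these 11 genes 8 rose and 2 fell, and of the 27 without it 13 rose. Among all genes of at least 10 CPM, 27.4% rose and 25.7% fell. The letters stood in windows of genes that moved in either direction, and in EIF2B1 and EIF3K they lay after the start. Shown with the match in capitals are EIF4G3 (chr1:21111494-21111522, minus strand, before a start inside the gene's span, higher with tamarixetin) and EIF4EBP2 (chr10:70404077-70404105, plus strand, lower).
EIF4G3: tgtcttaaagGCTGTGTCAcctggatagt
EIF4EBP2: ccgccccgcgGCGACGTCAcctccggccg
The E-box CACGTG, the motif of MYC and of USF and TFE proteins, was in a window of 10 of the 38 genes (26.3%), against 8.77% of all genes in the table, and 4 of these 10 rose and 1 fell. Of the 28 genes without it 17 rose. The windows of the initiation genes were not compared with those of other expressed genes. For neither motif was a link with the direction of change tested.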
